A study of Mus musculus with 2 samples.

Results

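The transcripts followed here through the thymus belong to the immediate early response: the AP-1 subunit genes Fos, Fosb, Jun, Junb and Jund, and Klf6, Dusp1, Ier2 and Zfp36. These 9 genes, of 20282 in the deposited count table, were taken by name. The list was chosen by, and with knowledge of, their levels in the clusters of the WT and the KO library, in UMIs (distinct molecules counted) per 1000000 UMIs of the cells in question (CPM). Each level and each ratio given here is therefore a description, with no test.

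The study asked what the GTPase Cdc42 does in developing T cells, and thymocytes were profiled by droplet 3′ single-cell RNA-seq. The WT library came from Cdc42f/f mice and the KO library from Cdc42f/f CD4Cre littermates. Both carried the floxed allele, both were 6 weeks old, and 5 thymuses were pooled into each library. Cre driven by CD4 regulatory sequence acts from the double-positive (DP) stage on, so earlier thymocytes and cells of other lineages in the KO library may keep Cdc42. With 1 pooled library per genotype there was no replicate, no test was possible, and a difference between genotypes cannot be told apart from one between pools or preparations. Intervals given below are exact 95% intervals for counting error alone. Several UMIs can come from 1 cell, so these intervals are too narrow for a gene read in few cells.

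The libraries held 6115 WT and 7568 KO cells with 29706197 and 37920214 UMIs, at a median of 3192 and 3401 UMIs per cell. Cdc42 itself was at 398 CPM in WT and 356 in KO over all cells, and reads of 3′ ends do not show whether a transcript lacks the floxed exon. The paper shows the deletion by genotyping PCR and immunoblot in CD4 single-positive thymocytes. Cells were assigned to a library by the WT or KO tag of their names, in which the gene is spelt Cdc45. Only 17 barcodes occurred in both libraries. The 19 deposited clusters were called by marker gene: 5 Rag1 clusters with high Rag2, Dntt, Cd8a and Cd8b1 (DP-like, 3636 WT and 4641 KO cells), 2 Cd5 clusters with high Cd69 and Egr1 (signalled cells, 535 and 843), the Itm2a cluster (479 and 316) and the Ms4a4b cluster with high S1pr1 and Klf2 (single-positive-like, 332 and 396).

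Immediate early genes are transcribed within minutes of a stimulus without new protein synthesis, and in thymocytes T cell receptor signalling is such a stimulus. Fos and Jun proteins pair through leucine zippers to form AP-1, which binds DNA next to NFAT at many T cell genes. Klf6 is a zinc finger factor of the Krüppel-like family, Dusp1 is a phosphatase of MAP kinases, Ier2 is a small nuclear protein, and Zfp36 (tristetraprolin) binds AU-rich elements and speeds mRNA decay.

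Of these genes, Klf6 was higher and Jund lower in the KO library across most clusters, whereas Fos, Fosb and Jun were scarce. Klf6 in the Ms4a4b cluster was at 33.1 CPM in WT (95% interval 26.1 to 41.3) and 186 in KO (168 to 204). Jund in the Rag1 clusters was at 803 in WT (787 to 820) and 579 in KO (567 to 591). Junb was within its counting error in each of the 4 main groups of clusters.

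The promoters of Klf6 and Fos are shown because these genes had opposite ratios in the Ms4a4b cluster. They come from RefSeq (build GRCm38.p6, 250 bases before to 50 after the annotated start), and capitals mark letters of the GC box, TATA box or CCAAT box. Klf6 lies at chr13:5861482-5870394 on the plus strand, with a promoter at chr13:5861239-5861538. Fos lies at chr12:85473890-85477273 on the plus strand, with a promoter at chr12:85473640-85473939.
Klf6: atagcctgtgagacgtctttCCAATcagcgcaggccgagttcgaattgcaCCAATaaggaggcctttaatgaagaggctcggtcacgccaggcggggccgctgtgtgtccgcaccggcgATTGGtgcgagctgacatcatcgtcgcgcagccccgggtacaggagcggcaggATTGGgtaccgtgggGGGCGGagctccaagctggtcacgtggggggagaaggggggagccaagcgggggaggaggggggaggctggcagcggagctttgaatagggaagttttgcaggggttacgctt
Fos: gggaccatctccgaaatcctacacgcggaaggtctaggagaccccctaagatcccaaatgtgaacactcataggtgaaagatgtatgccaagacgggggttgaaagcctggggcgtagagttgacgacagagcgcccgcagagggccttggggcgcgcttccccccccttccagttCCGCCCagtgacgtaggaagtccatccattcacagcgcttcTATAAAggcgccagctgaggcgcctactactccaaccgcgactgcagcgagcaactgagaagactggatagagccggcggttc

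RefSeq promoters were held for 8 of the 9 genes, all but Ier2. The letters of 6 motifs were searched on both strands: the CRE (TGACGTCA), an AP-1 site (TGANTCA), the GC box (GGGCGG), the TATA box (TATAAA), the CCAAT box (CCAAT) and the CArG box. A GC box was held by 6 of the 8 promoters, against 62.6% of the 10123 promoters of genes with 20 or more UMIs. Fos and Junb held TATAAA, which 7.40% of all these promoters held, and Jun, Junb and Klf6 held CCAAT, which 39.6% held. Dusp1 alone held a full CRE (3.30% of all) and Zfp36 alone a CArG box (1.31%), while no promoter of the 8 held the AP-1 letters (4.74%). The RefSeq starts of Jund, Dusp1 and Zfp36 lie away from the GENCODE gene starts, so their windows may not be the promoters used in these cells. Such matches are descriptions of letters, not of binding.

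Zfp36 protein binds AU-rich stretches, so the nonamer TTATTTATT was searched in the 3′ UTR of the transcript with the longest coding sequence (GENCODE vM21, GRCm38). It occurred in Fos, Zfp36 and Dusp1, 3 of the 9 genes, against 7.05% of 11406 detected genes. The sites are shown with 10 bases on each side and the nonamer in capitals. They lie in 3′ UTRs, at chr12:85477103-85477131 on the plus strand for Fos, at chr17:26506159-26506187 and chr17:26505870-26505898 on the minus strand for Dusp1, and at chr7:28376951-28376979 on the minus strand for Zfp36.
Fos: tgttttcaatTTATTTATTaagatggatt
Dusp1, first: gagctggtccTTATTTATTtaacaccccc
Dusp1, second: gtttttacctTTATTTATTtttgtgtagg
Zfp36: tatgacgactTTATTTATTgtattaagat

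Klf6 held no nonamer but 7 copies of the shorter ATTTA in a 3′ UTR of 3111 bases, and 5 of the 9 genes held 3 or more copies, against 33.8% of detected genes. Jund held 1 copy and Ier2 held 0. Jund, Jun, Junb and Ier2 have 1 exon each. Some genes overlap another on the opposite strand: Junb shares 351 bases with Prdx2 (23347 UMIs in all), Dusp1 shares 640 bases with Ergic1, Jund shares 919 bases with Gm11175 (36 UMIs) and Jun shares 689 bases with Junos (13 UMIs). How the counting treated strand is not given in the sources used here, so reads in those overlaps are uncertain.

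The 9 genes together had 51972 UMIs, of which Jund gave 64.0%, Junb 9.13%, Zfp36 8.84%, Klf6 7.92% and Ier2 6.57%. Dusp1 gave 858 UMIs, Jun 707, Fos 242 and Fosb 57. Fos was read in 169 cells and Fosb in 38 of 13683, so statements on these genes rest on few cells.

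**Figure D1:**
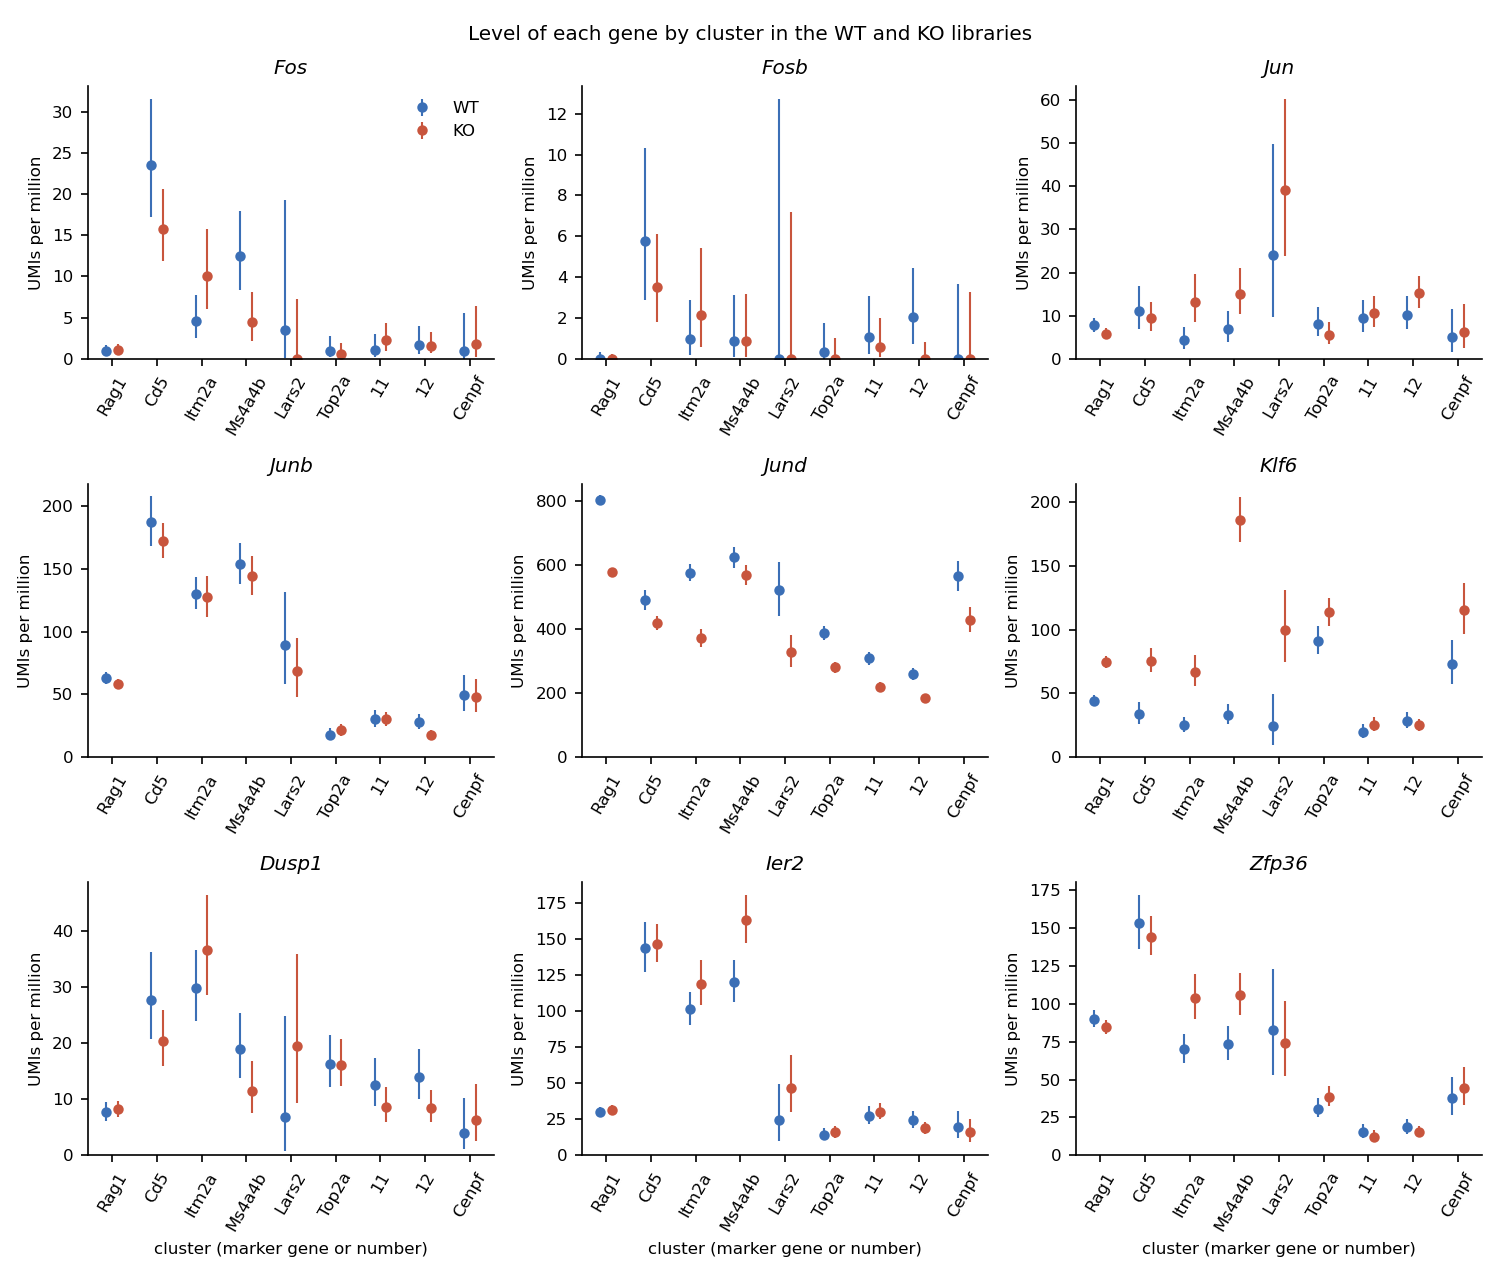
Level of each of the 9 genes (y axis, CPM, linear from 0) in clusters with at least 100 cells per library, named by marker gene or number on the x axis. Blue points are the WT library, red points the KO library, and bars are exact 95% Poisson intervals. Klf6 in the Ms4a4b cluster (33.1 in WT, 186 in KO) and Jund in the Rag1 clusters (803 in WT, 579 in KO) stand apart between libraries, while Junb points lie close together.

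Among the clusters with at least 100 cells per library, Junb, Ier2 and Fos were highest in the Cd5, Itm2a and Ms4a4b clusters. Junb was at 187 CPM (169 to 208) in the Cd5 clusters of the WT library and at 63.1 (58.5 to 68.0) in its Rag1 clusters. Ier2 was at 144 (127 to 162) and 30.2 (27.0 to 33.6) in the same groups. Fos was at 23.6 (17.2 to 31.5) and 0.920 (0.441 to 1.69), from 45 and 10 UMIs. The step from the Cd5 to the Rag1 clusters was there in the KO library too, with Junb at 172 and 58.1, Ier2 at 147 and 31.7 and Fos at 15.8 and 1.11. Other places in the order changed between libraries. Ier2 was highest in Cd5 cluster 9 in WT (181) and in the Ms4a4b cluster in KO (163), and Fos was higher in the Ms4a4b than the Itm2a cluster in WT (12.5 and 4.59) but not in KO (4.41 and 10.1). The intervals of most neighbours in either order overlapped. Zfp36 led in the Cd5 clusters too, at 153 in WT and 144 in KO, but in WT its Rag1 clusters (85.7 to 92.3) stood before the Ms4a4b cluster (73.4). The proliferating Top2a cluster was low, with Junb at 17.9 in WT and 21.3 in KO.

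Jund and Klf6 were ordered otherwise among the same clusters of at least 100 cells per library. Jund was highest in the Rag1 clusters of the WT library, where all 5 lay between 777 and 867 CPM and above the Ms4a4b cluster at 624, with no overlap of intervals at that step. In the KO library the Rag1 clusters (560 to 596) and the Ms4a4b cluster (568) overlapped. Klf6 in the WT library was highest in the proliferating Top2a (91.3) and Cenpf (73.3) clusters and in Rag1 cluster 4 (69.4), whose intervals overlapped. In the KO library it was highest in the Ms4a4b cluster at 186, with an interval clear of the next, the Cenpf cluster at 115.

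A gene was counted as past the fold when the libraries differed by at least 1.5-fold and it had at least 20 UMIs in the cells compared. In the Rag1 clusters 8 of the 9 genes had 20 UMIs (Fosb had 0). Klf6 was past the fold upward, beside 5.80% of 12983 genes, and 0 of the 8 downward, beside 2.57%. In the Cd5 clusters all 9 had 20 UMIs. Klf6 was past it upward (7.02% of 9854 genes) and Fosb downward (3.56%), from 11 and 12 UMIs and turning to 2.80 on thinning. In the Itm2a cluster 8 had 20 UMIs, with Klf6, Jun and Fos past it upward (11.3% of 9790 genes) and Jund downward (4.95%). In the Ms4a4b cluster 8 had 20 UMIs, with Klf6 and Jun upward (21.0% of 9586 genes) and Fos and Dusp1 downward (5.55%). As these levels chose the genes, nothing is read from the counts. The median log2 ratio of KO over WT was -0.01, -0.23, 0.44 and 0.17 over the genes counted in these 4 groups, and 0.05, 0.04, 0.16 and 0.24 over all genes counted there.

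**Figure D2:**
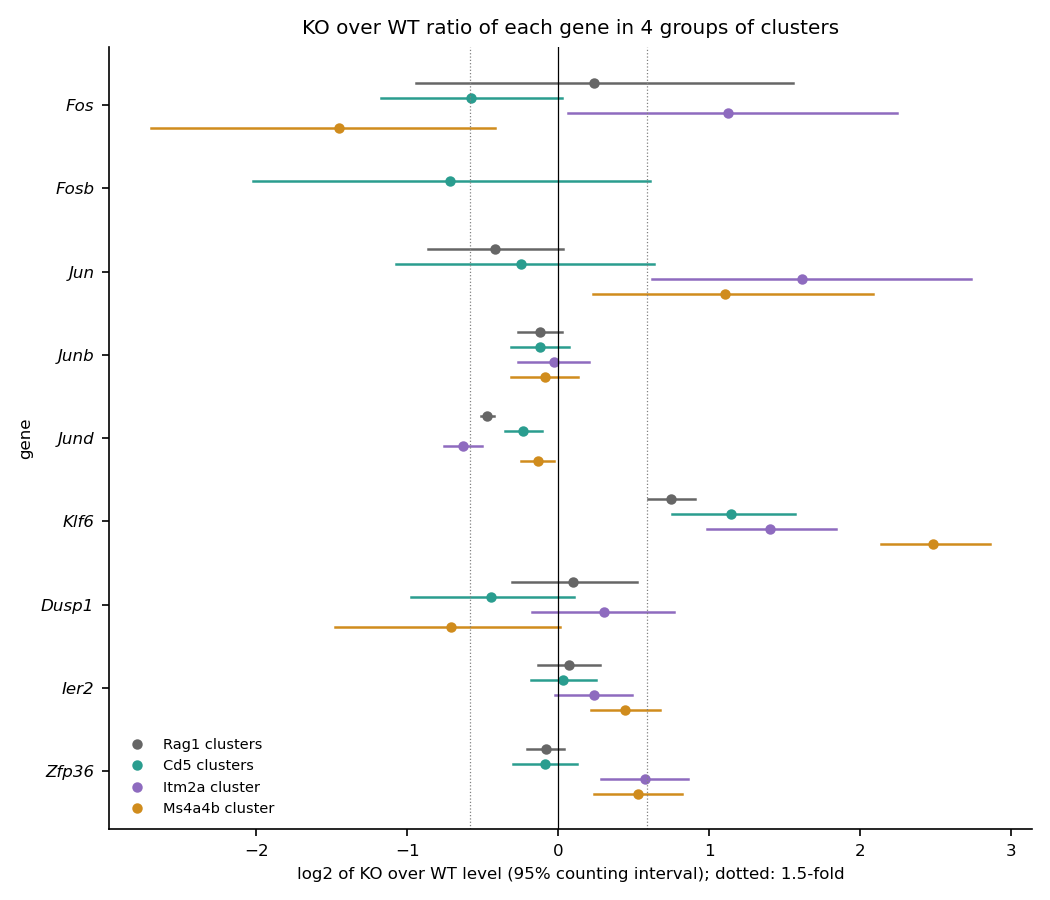
The log2 ratio of KO over WT level (x axis) for each gene (y axis) in the Rag1, Cd5, Itm2a and Ms4a4b clusters (colours), with exact 95% counting intervals, for genes with 20 or more UMIs in the cells compared. Dotted lines mark 1.5-fold. Klf6 is to the right in all 4 groups (0.75 to 2.48), Jund to the left (-0.63 to -0.13), and Fos on opposite sides in the Itm2a (1.13) and Ms4a4b (-1.45) clusters.

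Klf6 was higher in KO in each main group of clusters. Its level was 44.4 in WT and 74.5 in KO in the Rag1 clusters, a log2 ratio of 0.75 (0.59 to 0.90). In the Cd5 clusters it was 34.0 and 75.7, a log2 ratio of 1.15 (0.76 to 1.57). In the Itm2a cluster it was 25.2 and 67.0, a log2 ratio of 1.40 (0.99 to 1.84). In the Ms4a4b cluster the log2 ratio was 2.48 (2.14 to 2.86), or 5.59-fold, and intervals of the WT and KO levels were apart in all 4 groups. The 4 ratios themselves spanned a wider range than their counting error, the lowest in the Rag1 and the highest in the Ms4a4b clusters.

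Over the 19 single clusters Klf6 was higher in KO in 15, in 12 of which the interval lay above 0, and no interval lay below 0. Among the Rag1 clusters the log2 ratio ran from 0.28 (-0.03 to 0.58) in cluster 4 to 1.19 (0.83 to 1.58) in cluster 0. The RNA-poor Lars2 cluster was at 24.2 in WT and 99.7 in KO, from 7 and 51 UMIs. Its 6 macrophage markers summed to 48.3 CPM in WT (4 of 6 with a UMI) and 971 in KO (2 of 6), and its 6 dendritic cell markers to 58.7 (4 of 6) and 338 (6 of 6). Outside the DP-like and later cells, the Myl10 cluster of early thymocytes was at 28.3 and 33.3, and the Cd74 cluster of antigen-presenting cells at 118 and 103. The log2 ratios there were 0.21 (-0.69 to 1.22) and -0.21 (-0.90 to 0.55), with wide intervals, and whether they differ from those of the other clusters was not tested. The markers of the Cd74 cluster differed between libraries. Its 5 B cell markers summed to 4787 CPM in WT and 40760 in KO, its 6 dendritic cell markers to 25796 and 17513 and its 6 macrophage markers to 3264 and 823, all with a UMI in both. The part of these markers in the Lars2 and Cd74 values was not tested.

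The UMIs of Klf6 were spread over many cells. In the Ms4a4b cluster 77 WT UMIs lay in 62 of 332 cells and 421 KO UMIs in 217 of 396 cells, with at most 4 and 9 in 1 cell. At an equal depth of 1000 UMIs per cell, 2.42% of WT cells (1.05 to 4.71) and 14.1% of KO cells (10.9 to 18) had a Klf6 UMI. The unthinned shares were 18.7% and 54.8%, at median depths of 6738 and 5032 UMIs per cell. No thymic cell type is known to lack Klf6, and the lowest shares in a cluster of over 100 cells at this depth were 1.13% in WT (cluster 11) and 1.61% in KO (cluster 12), at median depths of 12864 and 22445. In the Itm2a cluster the thinned shares were 2.92% and 6.67%, in the Rag1 clusters 4.0% and 6.63%, and in the Cd5 clusters 3.95% and 6.68%.

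Klf6 was higher in KO in each coreceptor class of the later cells. When the cells of the Itm2a and Ms4a4b clusters were sorted by coreceptor UMIs, a sort chosen after the data were seen, the log2 ratio was 2.11 (1.53 to 2.75) in cells with Cd4 alone, from 23.3 to 101. It was 2.15 (1.67 to 2.67) in cells with Cd8a or Cd8b1 alone, from 28.7 to 128. Cells with both gave 1.98 and cells with neither 2.51, so the 4 intervals overlapped. The cells of a class may lie in different clusters in each library. The Itm2a and Ms4a4b clusters held 479 and 332 WT cells but 316 and 396 KO cells, and Klf6 in KO was at 67.0 and 186 there.

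Markers of other cells also differed within the Ms4a4b cluster. The 6 macrophage markers summed to 7.3 CPM in WT (4 of 6 with a UMI) and 37.1 in KO (6 of 6), the 7 markers of early or gamma-delta cells to 185 and 341 (7 of 7 in both), and the 7 DP markers to 1249 and 1561. Of its own markers, S1pr1, the receptor for thymic exit, was at 261 and 643, and Ms4a4b at 1591 and 1874. The 6 single-positive markers (Ccr7, S1pr1, Klf2, Il7r, Ms4a4b and Cd52) summed to 7764 in WT and 8412 in KO. S1pr1, Ms4a4b and Klf2 rose by more than this sum did, so Ccr7, Il7r and Cd52 together were lower in KO. The part of all these markers in the Klf6 and Fos values was not tested.

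**Figure D3:**
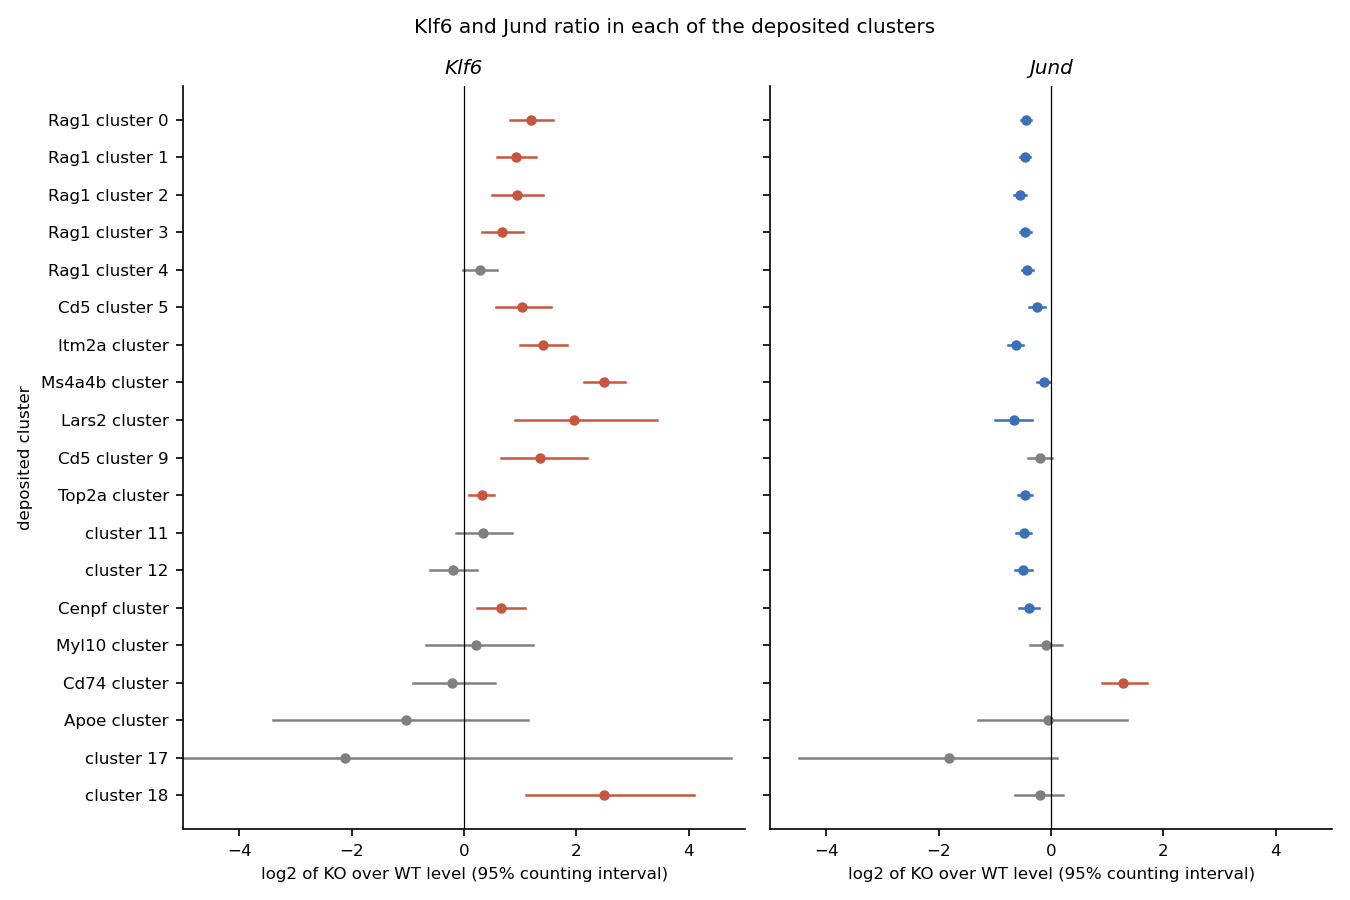
The log2 ratio of KO over WT level (x axis) of Klf6 (left) and Jund (right) in each of the 19 deposited clusters (y axis), with exact 95% counting intervals drawn up to 5 on either side. Red intervals lie above 0, blue below 0 and grey include 0. Klf6 is red in 12 clusters and blue in none, and Jund is blue in 13 and red in the Cd74 cluster.

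Jund, the AP-1 subunit that is least dependent on stimulation, was lower in KO in 18 of 19 clusters, with the interval below 0 in 13. In the Rag1 clusters the log2 ratio was -0.47 (-0.51 to -0.43), and the 5 clusters ran only from -0.56 to -0.43. Jund in the Itm2a cluster was at 576 in WT and 372 in KO, a log2 ratio of -0.63 (-0.76 to -0.50). Alternatives ran from -0.80 with TMM scaling to -0.44 in the Itm2a-matched part at a resolution of 1.8 (482 in WT and 355 in KO). The other part of the Itm2a cells gave -0.56 there (606 and 410), so both parts were under 1.5-fold. The matched part held 409 of 1758 WT and 359 of 700 KO Jund UMIs, and the part of this uneven split in the value of -0.63 was not tested. In the Cd5 clusters Jund was at 491 and 418, a log2 ratio of -0.23 (-0.35 to -0.11), and in the Ms4a4b cluster at 624 and 568, a log2 ratio of -0.13 (-0.24 to -0.03). The Ms4a4b value turned to 0.15 when every cell was thinned to 1000 UMIs, so no direction is given there. Proliferating cells showed it too, with 388 and 280 in the Top2a cluster. In the Cd74 cluster of 63 and 87 cells Jund was instead at 286 in WT and 699 in KO, a log2 ratio of 1.28 (0.90 to 1.70), where the median depth was 1202 and 4284 UMIs per cell. The part in that value of depth, and of the B cell, dendritic cell and macrophage markers that moved in this cluster, was not tested.

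The other Jun genes differed from it. Junb, which is inducible, was at 130 in WT and 128 in KO in the Itm2a cluster and at 154 and 144 in the Ms4a4b cluster, and all 4 main intervals of its ratio included 0, though in the Ms4a4b cluster TMM scaling gave -0.35 and thinning -0.48. Jun was scarce, at 7.73 in WT and 5.79 in KO in the Rag1 clusters, with an interval of the log2 ratio from -0.86 to 0.03. Its Ms4a4b cluster levels were 6.87 and 15, a log2 ratio of 1.10 (0.23 to 2.08), from 16 UMIs in 11 cells and 34 UMIs in 25 cells. Jun in the Itm2a cluster was at 4.26 and 13.3, but 21 of its 25 KO UMIs lay in 1 cell. Without the cell with most Jun UMIs in each library, an alternative chosen after the data were seen, the levels were 3.61 and 2.13 and the log2 ratio went from 1.62 to -0.66.

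Fos, the classical inducible partner of Jun, was lower in KO in the Ms4a4b cluster, and its ratio in the Itm2a cluster depended on depth. The Itm2a cluster had it at 4.59 in WT and 10.1 in KO, from 14 and 19 UMIs, a log2 ratio of 1.13 (0.07 to 2.25). Its levels in the Ms4a4b cluster were 12.5 and 4.41, from 29 and 10 UMIs, a log2 ratio of -1.45 (-2.70 to -0.42). Thinning every cell to 1000 UMIs took the Itm2a log2 ratio to 0.24, under 1.5-fold, and the Ms4a4b one to -2.58. Both rested on few cells. Without the cell with most Fos UMIs the log2 ratio was 0.91 (-0.30 to 2.16) for Itm2a and -1.23 (-2.68 to -0.04) for Ms4a4b. In the Cd5 clusters, where Fos was highest, it was at 23.6 and 15.8, with an interval of the log2 ratio from -1.18 to 0.03. Fosb was read 23 times in the Cd5 clusters, at 5.76 in WT and 3.51 in KO. It was read 0 times in the Rag1 clusters, where 3 UMIs would be a level of 0.276 in WT and 0.195 in KO.

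Zfp36 was higher in KO in the later stages by under 1.5-fold, and the ratio of Ier2 there depended on depth. The median gene was higher in these stages as well (by 0.16 for Itm2a cells, 0.24 for Ms4a4b cells). Zfp36 was at 70.1 in WT and 104 in KO in the Itm2a cluster, a log2 ratio of 0.57 (0.28 to 0.86), just under 1.5-fold. It was at 73.4 and 106 in the Ms4a4b cluster, a log2 ratio of 0.53 (0.24 to 0.82), and at 90.1 and 84.9 in the Rag1 clusters. At a resolution of 1.8 the Itm2a cells fell into 2 clusters, with log2 ratios of 0.05 (-0.36 to 0.46) in the Itm2a-matched part and 0.78 (0.37 to 1.19) in the other. Ier2 was at 120 and 163 in the Ms4a4b cluster, a log2 ratio of 0.44 (0.21 to 0.67), which thinning took to 0.11, outside that interval. It was at 101 and 119 in the Itm2a cluster (0.23, -0.02 to 0.49, but -0.25 after thinning) and at 144 and 147 in the Cd5 clusters. Dusp1 was at 18.9 and 11.5 in the Ms4a4b cluster, from 44 and 26 UMIs, and at 29.8 and 36.7 in the Itm2a cluster, and each of its 4 main intervals included 0.

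**Figure D4:**
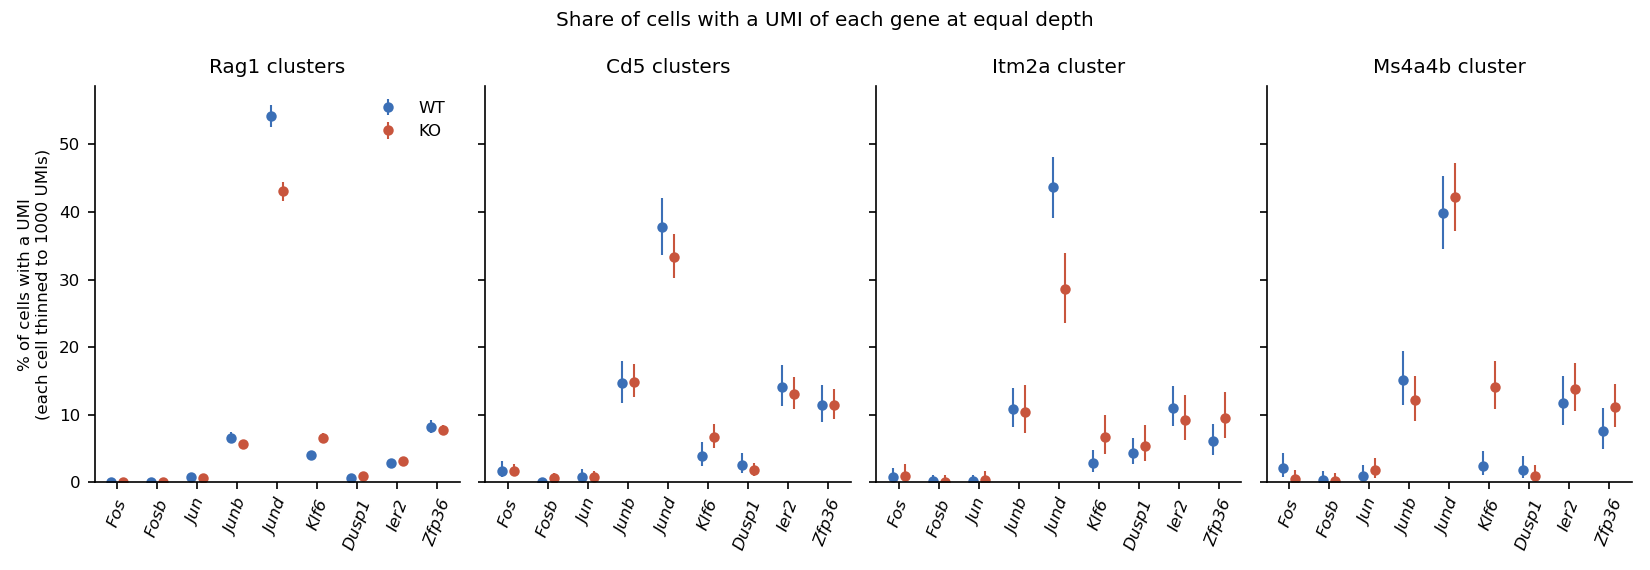
Share of cells with a UMI of each gene (y axis, percent, from 0) after each cell was thinned to 1000 UMIs, in the Rag1, Cd5, Itm2a and Ms4a4b clusters, with exact 95% Clopper-Pearson intervals (WT blue, KO red). Klf6 intervals are apart in the Rag1 (4.0% and 6.63%) and Ms4a4b (2.42% and 14.1%) clusters, and Jund intervals in the Rag1 (54.2% and 43.0%) and Itm2a (43.6% and 28.6%) clusters.

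Summed, the 9 genes were at 1047 CPM in WT and 843 in KO in the Rag1 clusters (log2 ratio -0.31, -0.35 to -0.28), at 1077 and 1006 in the Cd5 clusters (-0.10, -0.18 to -0.02), at 943 and 852 in the Itm2a cluster (-0.15, -0.24 to -0.06) and at 1044 and 1199 in the Ms4a4b cluster (0.20, 0.12 to 0.28). These sums are mostly Jund, and without it the log2 ratios were 0.11, 0.0038, 0.39 and 0.59. The sign of the sum in the Ms4a4b cluster also depended on the scaling, which gave -0.059 by TMM and -0.021 by DESeq2.

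The share of cells with several of the transcripts was compared at equal depth. At 1000 UMIs per cell, 3 or more of the 9 genes were found in 1.06% of WT and 1.45% of KO cells of the Rag1 clusters, in 5.08% and 5.25% of the Cd5 clusters, in 3.34% and 3.49% of the Itm2a cluster and in 5.14% and 5.81% of the Ms4a4b cluster. The intervals of WT and KO overlapped in each group at this depth. At 2000 UMIs per cell they were apart in the Ms4a4b cluster, where 11.7% of WT cells (8.38 to 15.6) and 23.9% of KO cells (19.7 to 28.4) had 3 or more, and they overlapped in the others. Klf6, itself found in a larger share of KO cells of the Ms4a4b cluster, is among the genes counted, and its part in these shares was not tested.

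Over the 37 pairs of a cluster and a library with at least 20 cells, the 10 genes whose log2 level was most like that of the summed genes were Mcl1 (Pearson r = 0.90), Gm26740 (0.88), Apbb1ip (0.88), Rnf167 (0.88), Rrad (0.87), Btg1 (0.86), Hmgb1-ps8 (0.86), Fnbp1 (0.86), Slfn2 (0.85) and Il4ra (0.85). Mcl1 is a survival factor and Btg1 an antiproliferative immediate early gene. The pairs share libraries and depth, and by rank correlation (Spearman) 3 of the 10 were again among the 10 most alike. Klf6 and Jund had r = -0.18 over the 19 WT clusters and 0.84 over 18 KO clusters, given as a description. The rank correlations were -0.03 and 0.58, and the KO points include cluster 17, with 0 Klf6 and 3 Jund UMIs.

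Other genes of the pathway were taken from lists, beside an all-gene median log2 ratio of 0.24 in the Ms4a4b cluster. Of the other Krüppel-like factors, all 6 with 20 or more UMIs in the Ms4a4b cluster were past the fold upward, beside 21.0% of all genes, with a median log2 ratio of 1.14. Klf2, which drives S1pr1 and thymic exit, was at 679 in WT and 1626 in KO there, a log2 ratio of 1.26 (1.17 to 1.34). Klf3 was at 97.0 and 288 (1.57), Klf7 at 45.1 and 155 (1.78) and Klf13 at 354 and 549 (0.63). Klf2 was also higher before that stage, at 8.47 and 29.3 in the Rag1 clusters (1.78) and at 9.95 and 65.2 in the Cd5 clusters (2.68). For Itm2a cells 4 of 7 were past the fold upward (11.3% of all genes) and 1, Klf9, downward (4.95%), with Klf7 at 62.3 and 116 and a median of 0.62. Klf2 was the 1 of 8 past it in the Rag1 clusters (5.80% of all genes upward) and the 1 of 6 in the Cd5 clusters (7.02%).

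**Figure D5:**
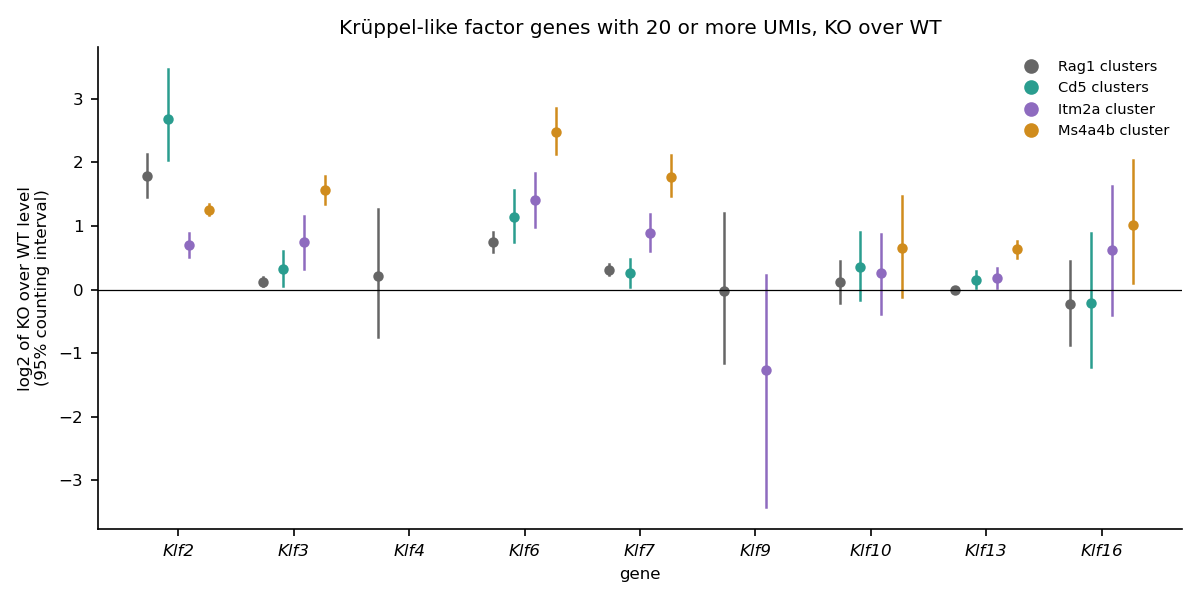
The log2 ratio of KO over WT level (y axis) of Krüppel-like factor genes (x axis) with 20 or more UMIs in the Rag1, Cd5, Itm2a and Ms4a4b clusters (colours), with exact 95% counting intervals. In the Ms4a4b cluster each gene drawn lies above 0, with Klf6 (2.48) and Klf7 (1.78) at the top.

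The other immediate early genes went both ways. Of them, in the Ms4a4b cluster, 5 of 26 were past the fold upward, beside 21.0% of all genes, and 7 downward, beside 5.55% (median 0.06). Pim1, a survival kinase, was at 53.7 in WT and 138 in KO, a log2 ratio of 1.36 (1.05 to 1.67), and Sgk1 at 26.2 and 56.9. Among those downward, Egr1 was at 67.8 and 40.6 (-0.74, -1.13 to -0.36), Nr4a1 at 52.0 and 30 (-0.79, -1.24 to -0.35) and Egr3 at 20.6 and 3.09 (-2.65, -4.13 to -1.59). The 6 markers of signalled cells are Cd5, Cd69, Itm2a, Nr4a1, Egr1 and Egr2. They summed to 636 in WT and 705 in KO in this cluster (6 of 6 with a UMI in both). Egr1, Nr4a1 and Egr2 were lower in KO, so the higher sum came from Cd5, Cd69 and Itm2a together. The other immediate early genes upward were Rhob, from 6 to 57 UMIs, Tob1 and Klf10, and the others downward Egr2, Nr4a3, Plk3 and Rgs1. Klf10 is also counted among the Krüppel-like factors above, so the counts of these lists are not separate. In the Itm2a cluster, 2 of 27 were past the fold upward (Egr2 and Tob1), beside 11.3% of all genes, and 2 downward (Rgs1 and Rgs2), beside 4.95%. Nr4a1 was at 84.5 and 121 there (0.51, 0.25 to 0.78) and Egr2 at 25.2 and 39.3 (0.64, 0.16 to 1.12), while Ier5 was at 90.4 and 69.1 (-0.39, -0.70 to -0.08) and Myc at 58.7 and 43.0 (-0.44, -0.84 to -0.06). Trib1 was at 21.6 and 28.7 and Rgs2 at 33.1 and 19.1. In these cells the 6 markers of signalled cells summed to 2494 in WT and 3225 in KO, the 6 single-positive markers to 4718 and 3908 (6 of 6 with a UMI in both), and the 6 macrophage markers to 4.3 (4 of 6) and 26.0 (6 of 6). The sum of signalled cell markers holds Nr4a1 and Egr2 themselves, so it is no separate reading for these genes. The part of the 3 sums in the value of Fos was not tested, nor that of the single-positive and macrophage markers in the values of Nr4a1 and Egr2. In the Cd5 clusters 0 of 26 were past the fold upward (7.02% of all genes) and 1 downward (3.56%), which was Gadd45g with 16 and 7 UMIs, and in the Rag1 clusters 0 of 22 in either direction (5.80% and 2.57%).

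Partners and regulators of AP-1 are given beside the same shares of all genes, 11.3% upward and 4.95% downward for Itm2a cells and 21.0% and 5.55% for Ms4a4b cells. Of the other AP-1 and bZIP genes 1 of 7 was past the fold upward in the Itm2a cluster, which was Batf at 21.3 in WT and 33.5 in KO, and 1 of 7 in the Ms4a4b cluster, which was Mafg at 14.2 and 22.5. Creb1 was under it, at 75.1 and 105 in the Ms4a4b cluster. Of the upstream kinases and SRF genes 0 of 18 were past it in the Itm2a cluster and 1 of 18 in the Ms4a4b cluster, Mapk3 (ERK1) at 25.3 and 42.8. Prkcq, a kinase below the T cell receptor, was at 154 and 218 (0.51, 0.31 to 0.70) and Elk4, a partner of SRF, at 99.0 and 131 (0.41, 0.16 to 0.66) in Itm2a cells. Of the phosphatases and RNA-binding attenuators 0 of 13 were past it in the Itm2a cluster, with Dusp2, another MAP kinase phosphatase, at 230 and 326 and Dusp10, also one, at 71.1 and 104. For Ms4a4b cells 3 of 13 were past it upward and 1 downward (Dusp4, 14 and 7 UMIs). Those upward were Tsc22d3 (GILZ) at 59.3 and 154, Zfp36l2, a relative of Zfp36, at 230 and 367, and Fbxw7, a ubiquitin ligase subunit for Jun, at 34.8 and 54.3. In the Rag1 clusters, beside 5.80% upward and 2.57% downward of all genes, Batf (1 of 9) and Srf (1 of 18) were past it upward and Dusp4 (1 of 13) downward, and in the Cd5 clusters Tsc22d3 was past it upward and Dusp6 downward.

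Genes of heat shock and tissue dissociation, which often accompany immediate early genes, were past the fold upward in 0 of 9 in each of the 4 groups, beside 5.80%, 7.02%, 11.3% and 21.0% of all genes, with median log2 ratios of -0.12, -0.07, -0.09 and 0.08. Only Hspe1 in the Ms4a4b cluster was past it downward, at 441 and 286. Hspa8 was lower in KO, at 660 and 446 in the Ms4a4b cluster and at 652 and 470 in the Itm2a cluster. Hspa1a and Hspa1b had 0 or 1 UMI in each group. Xist was at 1406 in the WT and 1547 in the KO library and at 1086 and 1449 in the Ms4a4b cluster.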

How the data were processed

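Thymocytes of both genotypes were profiled by droplet 3′ single-cell RNA-seq. The deposited matrix holds whole UMI counts per gene and cell, which the authors made with Cell Ranger 3.0.2, STAR and Seurat on build mm10, as the submitters' processing notes name them. The deposited cell table gives cluster numbers at 3 resolutions. The mitochondrial percentage deposited there is 0 throughout and was set aside. Per the study's methods, cells with 200 to 6000 genes were kept.

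For each library, the UMIs of a cluster's cells were added up and expressed per 1000000 of their UMIs (CPM). Clusters at resolution 1.5 were matched to a marker gene by its highest level, and Rag1 and Cd5 clusters were those at 50% or more of the highest level among clusters not yet matched to another marker, which left out the Lars2 cluster. Levels have exact Poisson intervals, shares exact Clopper-Pearson intervals, and log2 ratios (0.5 added to both sums) exact conditional binomial intervals. Thinning drew 1000 UMIs per cell without replacement. Ratios were tested on simulated Poisson counts with known folds. That simulation held no spread between cells or pools, so it says nothing on such spread. Python 3.11.15, numpy 2.4.6, scipy 1.17.1 and pandas 2.3.3 were used, and edgeR 4.0.16 and DESeq2 1.42.0 gave scaling factors only. Scrublet (scanpy 1.11.5) marked 2 of 6115 WT and 0 of 7568 KO cells as doublets, so it had not worked. The 6% of cells with the highest score were left out only as an alternative.

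The 9 genes, the gene lists and the rules were chosen with earlier results of these data known. Beside the 9 genes, names were drawn from, per list, the 3 highest and 3 lowest ratios among genes with at least 100 UMIs in the Itm2a and the Ms4a4b cluster, and the 10 genes most alike in level, and only some of the former are printed. Genes outside that rule (Egr3, Rhob, Tob1, Klf9, Klf10, Nr4a3, Plk3, Mafg, Gadd45g, Dusp4, Dusp6, Srf, S1pr1, Rgs1 and Egr2 outside their named cluster, and Klf2, Batf and Tsc22d3 in the Rag1 or Cd5 clusters) were named after their values were seen. Of the list genes, Fosl1, Batf2, Cyr61, Mkl1, Mkl2 and Hspb1 were not matched. In the sex-linked list Ddx3y, Eif2s3y, Kdm5d and Uty were not matched either, which left Xist alone. Alternatives were another scaling, weighting, depth, cell set, cluster resolution, added constant and minimum count.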

Additional observations from a re-analysis of the deposited data

Results flagged for a closer look

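With the Rag1 clusters and the Cd5 clusters each pooled into 1 unit, 3 of the genes had counting intervals of the log2 ratio of KO over WT on opposite sides of 0. Over the 19 single clusters Jun and Zfp36 did so too, Jun with 2 intervals above 0 and 1 below, and Zfp36 with 2 above and 2 below. The difference between clusters was not tested. Fos was at 1.13 in the Itm2a cluster and below 0 in 2 other units, at -1.45 in the Ms4a4b and -5.69 in the Cd74 cluster. The last compares 11 WT UMIs, from 2 cells, with 0 in KO, so its size depends on the added constant. Junb was at 1.19 in cluster 18, which holds 24 WT and 8 KO cells, and at -0.93 in the Cd74 cluster. Jund was at 1.28 in the Cd74 cluster and lowest at -0.67 in the Lars2 cluster. The markers of other cells in these 2 clusters differed between libraries. In the Cd74 cluster the B cell markers summed to 4787 CPM in WT and 40760 in KO, dendritic cell markers to 25796 and 17513 and macrophage markers to 3264 and 823. In the Lars2 cluster macrophage markers summed to 48.3 and 971 and dendritic cell markers to 58.7 and 338. In the Itm2a cluster thinning to 1000 UMIs took the Fos value to 0.24. The part of these markers in the values was not tested.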

How the results depend on the processing

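With 1 pooled library per genotype, depth sets counting error only, and the spread between mice cannot be seen. No paired analysis was possible because each genotype has 1 library. Over 13 alternatives for each of 33 single-gene log2 ratios (429 values), 407 stayed within the counting interval, 18 left it (among them Jund in the Ms4a4b cluster, 0.15 on thinning) and 4 reversed, meaning that a ratio past the fold changed sign. Ratios under the fold also changed sign under an alternative, which were Fos in the Rag1 clusters, Jun, Junb, Ier2 and Zfp36 in the Cd5 clusters, Junb and Ier2 in the Itm2a cluster and Jund in the Ms4a4b cluster. The lowest and highest values of Klf6 were 0.70 and 0.82 (Rag1), 0.91 and 1.23 (Cd5), 1.24 and 1.53 (Itm2a) and 2.22 and 2.77 (Ms4a4b). Fosb in the Cd5 clusters gave 2.80 on thinning. Jun in the Itm2a cluster gave -0.74 at resolutions 1.8 and 2, where the matched cluster held part of the cells (3 and 2 UMIs) and the other part gave 2.67, and -0.66 without the cell with most UMIs, which held 21 of 25 KO UMIs. The summed genes gave, with TMM and DESeq2 factors, -0.36 and -0.36 in the Rag1, -0.31 and -0.31 in the Itm2a and -0.059 and -0.021 in the Ms4a4b clusters. Without ribosomal protein and mitochondrial genes in the totals they gave -0.26 for Itm2a and 0.027 for Ms4a4b, and thinning gave -0.27 for Itm2a. Without Jund they gave 0.11, 0.0038, 0.39 and 0.59 in the Rag1, Cd5, Itm2a and Ms4a4b clusters, and as the median over all 9 genes -0.085, -0.23, 0.57 and 0.039. Genes past the fold numbered 1087, 1043, 1591 and 2544 in these groups, against 5345, 6233, 6852 and 7878 with at least 1 UMI, 2725, 2593, 3236 and 4319 with at least 5, and 504, 429, 819 and 1625 with at least 50, where a lower minimum admits more genes. The cause of the other shifts was not tested. Leaving out shared barcodes or the cell with most UMIs, and the coreceptor sort, were chosen after the data were seen.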
